A study of Mus musculus with 8 samples.

Results

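Type I interferon stimulated genes were followed in bone marrow-derived macrophages (BMDM) exposed to bilirubin, the end product of heme breakdown. The genes were taken by symbol from a list of 50 mouse genes that interferon is known to induce, and all 50 were found among the 53819 genes of the count table. BMDM came from 4 female BALB/cJ mice aged 8 weeks, whose bone marrow was differentiated for 5 days with M-CSF at 25 ng/mL, the growth factor that drives macrophage formation. From each mouse, 1 culture then received 2.5 µM bilirubin and 1 received the DMSO vehicle for 48 h, which gave 8 libraries of poly-A RNA in 4 pairs. The comparison asks how far each gene differed between bilirubin and vehicle and whether the 4 mice gave the same picture. The labels name no added interferon, and 1 dose and 1 time were studied.

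Type I interferons are secreted cytokines that bind the receptor made of IFNAR1 and IFNAR2, whose kinases JAK1 and TYK2 phosphorylate STAT proteins. With IRF9 these form the complex ISGF3, which binds the interferon stimulated response element (ISRE) in the promoters of its target genes. Macrophages keep many of these genes on at a low tonic level, and the products sense viral RNA, block viral entry and replication, modify proteins with ISG15 or ADP-ribose, and feed back on the pathway.

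Many promoters of these genes hold the letters of the ISRE. RefSeq promoter windows, from 250 bases before to 50 bases after the start site in GRCm38.p6, were matched for 39 of the 50 genes and gave 47 windows, since some genes have several starts. The ISRE core GAAANNGAAA, read on both strands with overlapping matches allowed, was present in 21 of the 47 windows (44.7%), against 1131 of 32851 windows of all genes (3.44%). The gamma-activated site TTCNNNGAA, a STAT binding motif, was present in 7 of the 47 windows (14.9%), against 8.30% of all windows. Stretches of 8 of these promoters are printed because they hold the motif in genes described below. Capitals mark the ISRE letters, which appear as their reverse complement where the match is on the other strand, and each stretch runs 5′ to 3′ on the strand of the gene.
Isg15 (chr4:156200835-156200936, minus strand): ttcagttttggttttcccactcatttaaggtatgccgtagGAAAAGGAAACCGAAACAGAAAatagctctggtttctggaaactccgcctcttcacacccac
Ifit1 (chr19:34640745-34640853, plus strand): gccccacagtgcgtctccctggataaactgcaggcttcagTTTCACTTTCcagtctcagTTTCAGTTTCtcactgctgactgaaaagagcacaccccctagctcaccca
Ifit3 (chr19:34583333-34583456, plus strand): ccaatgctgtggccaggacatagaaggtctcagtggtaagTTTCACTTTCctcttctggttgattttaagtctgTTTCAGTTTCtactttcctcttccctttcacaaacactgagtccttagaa
Ifit3b (chr19:34607729-34607852, plus strand): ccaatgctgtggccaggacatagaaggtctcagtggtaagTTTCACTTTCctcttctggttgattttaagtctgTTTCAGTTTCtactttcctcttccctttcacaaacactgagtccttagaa
Oas1a (chr5:120907526-120907585, minus strand): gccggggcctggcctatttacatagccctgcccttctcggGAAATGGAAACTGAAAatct
Oas1g (chr5:120887614-120887671, minus strand): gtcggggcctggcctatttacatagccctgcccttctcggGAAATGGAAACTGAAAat
Bst2 (chr8:71537547-71537642, minus strand): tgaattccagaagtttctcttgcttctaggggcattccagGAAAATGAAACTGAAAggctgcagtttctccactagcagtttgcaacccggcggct
Rsad2 (chr12:26456523-26456612, minus strand): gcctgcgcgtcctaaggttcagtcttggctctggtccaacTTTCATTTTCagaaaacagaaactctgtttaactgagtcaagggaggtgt
*Isg15* held 3 overlapping copies, and *Ifit1* held 2 separated copies. The stretches of *Ifit3* and *Ifit3b* had the same letter at 124 of 124 positions. In *Oas1a* and *Oas1g*, 2 overlapping copies ended a few bases before the start site. The letters were not found in the windows of *Isg20*, *Epsti1* or *Irf7*. Windows of *Dhx58*, *Oas2*, *Mx1*, *Mx2*, *Usp18*, *Rtp4*, *Parp9*, *Parp14*, *Ifi204*, *Zbp1* and *Ifi27l2a* were not used here.

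Libraries held 37747292 to 47071686 counts on genes with vehicle and 34142766 to 41054006 with bilirubin. At this depth the 50 genes had between 34 counts (*Isg20*) and 9856 counts (*Trim25*) in a single library, and all 50 passed the filter on low counts among the 13722 genes tested. Both cultures of mouse 1 and the bilirubin culture of mouse 2 stood apart from the others in these genes, so the medians and the genes given in full are also given without mouse 1, and without mouse 2 where a call changed. These mice were picked by their values in the same genes. Calls made without mouse 1 or mouse 2 therefore describe how far the result depends on them and give no support to it. The vehicle culture of mouse 1 had the lowest vehicle level for 47 of the 50 genes, and it was below the mean of the other vehicle cultures for all 50, by a median log2 difference of -0.31. Its bilirubin culture had the highest bilirubin level for 46 genes and lay above the mean of the other bilirubin cultures by a median of 0.59. The bilirubin culture of mouse 2 had the lowest bilirubin level for 48 genes, with a median of -0.65 against the other bilirubin cultures. Over all tested genes the same medians lay between -0.0003 and 0.0056. Depth moved with the values of mouse 1, whose vehicle library was the largest of the 8 and whose bilirubin library was the smallest. The 50 genes together took 64383 counts in that vehicle library and 90962 in that bilirubin library, and the part of depth in the result was not tested.

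The interferon stimulated genes had higher fitted levels with bilirubin than with vehicle, but the size of the difference depended on the mouse and only 2 genes passed the test. The fitted log2 fold change, from edgeR's quasi-likelihood model of mouse and treatment, was above 0 for all 50 genes, with a median of 0.40 and a range from 0.09 for *Irf9* to 0.86 for *Isg20*. The median over all tested genes was -0.002. At a Benjamini-Hochberg adjusted p under 0.05 over all tested genes, *Isg20* and *Epsti1* rose and 0 of the 50 fell, so 4% of the genes were called higher against 4.49% of all tested genes, and 0 against 3.04% were called lower. Over all tested genes 616 were higher and 417 lower, a split that became 527 and 556 with library size alone for scaling. At an unadjusted p under 0.05 in edgeR, 19 of 50 genes (38%) were higher, against 10.8% of all tested genes. In either direction, 2851 of the 13722 tested genes were under that p. In bulk RNA a change in the number of cells that express a gene and a change in RNA per cell cannot be told apart. These p-values measure the spread between 4 pairs of cultures, with the variance of each gene drawn toward that of the other tested genes.

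**Figure D1:**
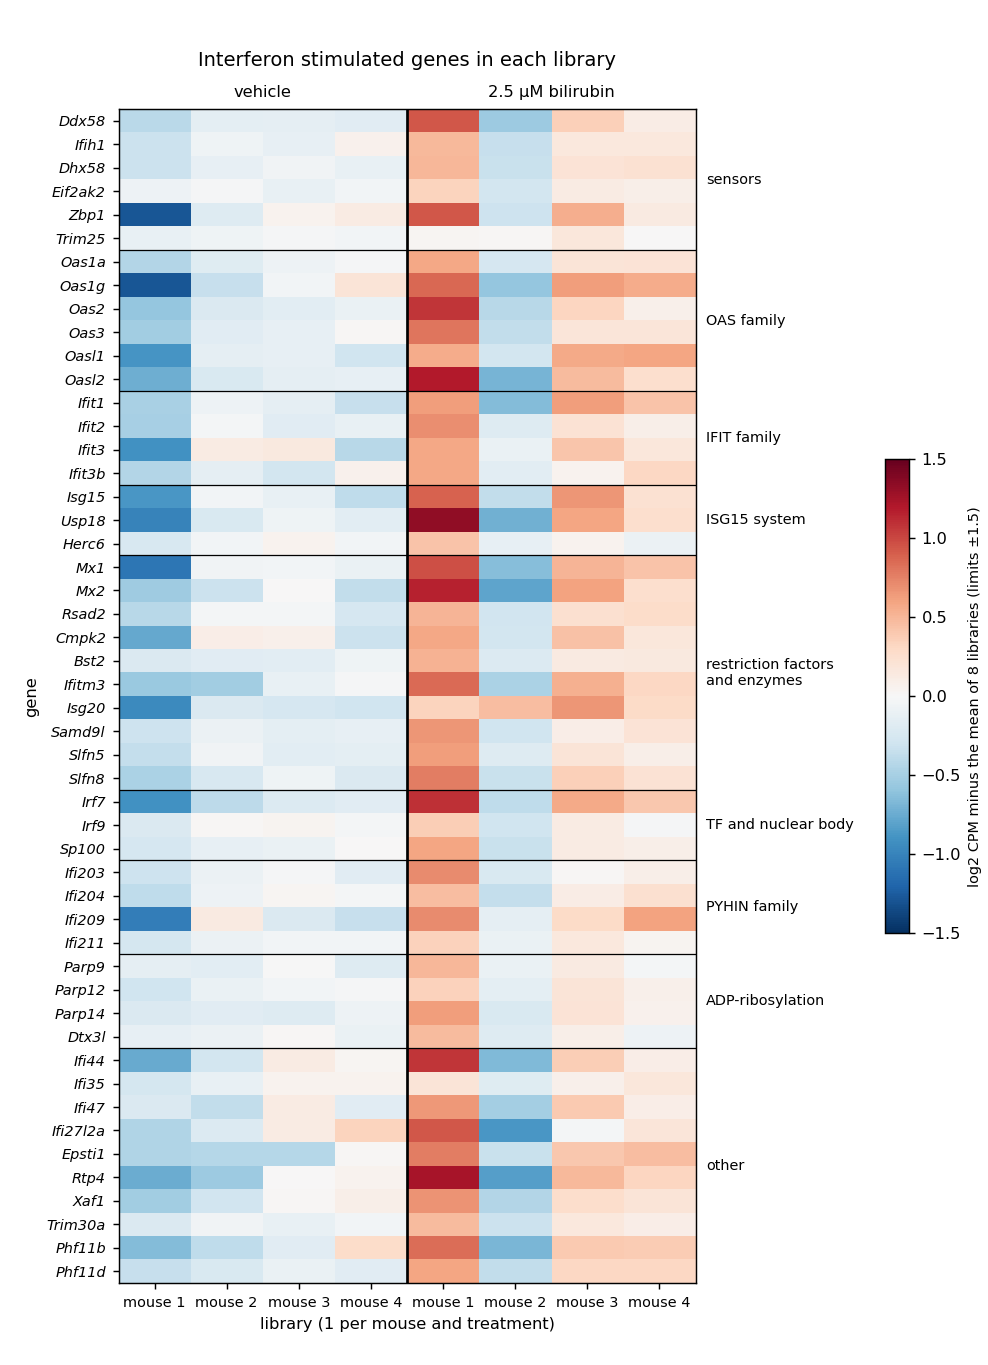
Levels of the 50 genes (vertical axis, by role) in the 8 libraries (horizontal axis, vehicle at left and bilirubin at right), as log2 CPM minus the mean of the gene over the 8 libraries, blue for lower and red for higher. The vehicle column of mouse 1 is the bluest of the vehicle columns for 47 genes, the bilirubin column of mouse 1 is the reddest for 46 and the bilirubin column of mouse 2 is mostly blue.

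Within single mice most of the genes differed in the same direction, which was not shared by all 4. Pair differences were taken as bilirubin minus vehicle in log2 CPM with a prior count of 2, CPM being counts scaled to the same TMM library size, where 1 library per mouse and treatment allows no test within a mouse. In mouse 1 all 50 differences were positive, with a median of 1.15, which is 2.21-fold, and a range from 0.13 for *Trim25* to 2.31 for *Usp18*. In mouse 2 the median was -0.20, and 44 of the 50 differences were negative. Mice 3 and 4 lay between these, with medians of 0.31 and 0.25 and with 49 and 48 positive differences. At least 2-fold higher levels were seen for 29 of the 50 genes (58%) in mouse 1, against 4.04% of all tested genes. No member reached that fold in mouse 2, 3 or 4, where 2.27%, 2.07% and 2.3% of all tested genes did. A fall of at least 2-fold was seen for 0 members in any mouse, against 2.16%, 2.08%, 1.63% and 2.14% of all tested genes in mice 1 to 4.

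**Figure D2:**
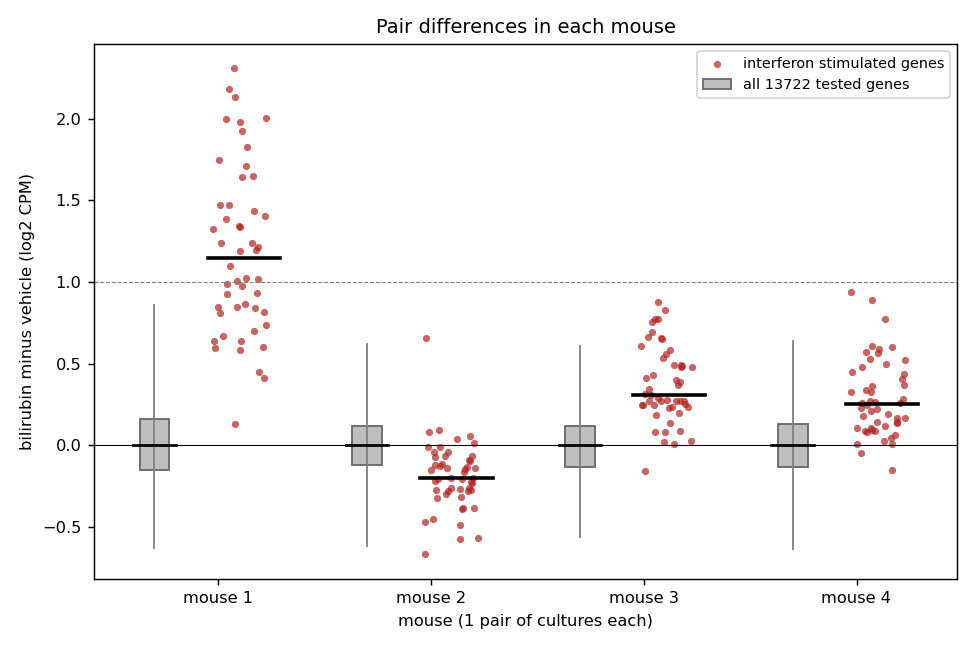
Pair differences (vertical axis, bilirubin minus vehicle in log2 CPM) in each mouse (horizontal axis), with 1 red point per interferon stimulated gene, a black bar at their median, and a grey box from the 25th to the 75th percentile of all tested genes with lines to the 5th and 95th percentiles. The points of mouse 1 center on 1.15 and those of mouse 2 on -0.20, while the boxes of all genes center on 0 in each mouse.

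Counting mice gene by gene, bilirubin levels exceeded vehicle levels in all 4 mice for 6 genes, in 3 for 42, in 2 for *Herc6* and in 1 for *Ifi27l2a*. The 6 genes were *Trim25*, *Isg20*, *Ifitm3*, *Irf7*, *Parp9* and *Epsti1*, and their share of 12% stood beside 14.5% of all tested genes. No member was lower in all 4 mice, against 13.9% of all tested genes. Groups that did not overlap, with all 4 bilirubin cultures above all 4 vehicle cultures, were seen for *Trim25* and *Isg20*, which is 4% against 5.93% of all tested genes. Mouse 1 gave the largest of the 4 differences for 49 genes and mouse 2 the smallest for 48. The standard deviation of the 4 pair differences had a median of 0.50 over the 50 genes and 0.14 over all tested genes, and it ranged from 0.06 for *Trim25* to 1.17 for *Usp18*. Without mouse 1 the median fitted log2 fold change was 0.15, 45 of 50 genes were above 0, and 4 genes passed as higher (*Oasl1*, *Ifitm3*, *Irf7* and *Epsti1*) and *Ifi27l2a* as lower, shares of 8% and 2% against 7.46% and 6.43% of all tested genes. Without mouse 2 the median was 0.58 and 6 genes passed as higher (*Oasl1*, *Ifit1*, *Isg15*, *Rsad2*, *Epsti1* and *Phf11d*), which is 12% against 3.03% of all tested genes. Without mouse 3 or without mouse 4, the median was 0.42 or 0.44. Of the 50 genes 0 passed in edgeR, where 1.93% and 2.2% of all tested genes were called higher. An unadjusted p under 0.05 was found for 6 and 11 of the 50 genes. The share of all tested genes at that unadjusted p was not computed for these fits.

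Of the sensors of viral nucleic acid, 0 of 6 passed in edgeR, DESeq2 or limma-voom. In edgeR 1 was higher at an unadjusted p under 0.05, against 10.8% of all tested genes. The role had a median fitted log2 fold change of 0.27. *Trim25* (chr11:88890202-88911122 in GRCm39), a ubiquitin ligase that activates RIG-I and the sensor gene with the highest level per length, had 203, 209, 216 and 212 CPM with vehicle in mice 1 to 4 and 222, 221, 246 and 219 CPM with bilirubin. All bilirubin cultures were above all vehicle cultures, but by little, with a log2 fold change of 0.11 ± 0.036 (SE, n = 4 pairs) and an adjusted p of 0.115 in edgeR. *Ddx58*, which encodes the RNA sensor RIG-I, had 23.9, 28.4, 28.7 and 28.03 CPM with vehicle in mice 1 to 4 and 60.5, 21.6, 40.4 and 34.2 CPM with bilirubin. Its level was highest in the bilirubin culture of mouse 1 and lowest in that of mouse 2, so the groups overlapped. The pair differences of *Ifih1*, which encodes MDA5, were 0.82, -0.28, 0.27 and 0.09 in mice 1 to 4, and those of *Dhx58*, which encodes LGP2, were 0.81, -0.22, 0.25 and 0.34. *Eif2ak2*, the kinase PKR that stops translation on double-stranded RNA, had pair differences of 0.41, -0.26, 0.23 and 0.13. *Zbp1*, a sensor of Z-form nucleic acid that triggers cell death, showed the widest range of pair differences, 2.18, -0.12, 0.49 and 0.01, from a vehicle level in mouse 1 that was well below the others. Without mouse 1 the median of the role was 0.12.

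The 2′-5′ oligoadenylate synthetases (OAS) make the messenger that activates RNase L, and their genes had the same sign as each other in every mouse. In edgeR 0 of the 6 passed, and 3 were higher at an unadjusted p under 0.05, against 10.8% of all tested genes. Limma-voom called *Oasl1* and DESeq2 none, although the median fitted log2 fold change of 0.58 was above that of all 50 genes. *Oasl1* (chr5:115061294-115075974), an OAS-like protein without the enzyme activity that holds back translation of *Irf7*, had 8.79, 14.7, 14.9 and 13.1 CPM with vehicle in mice 1 to 4 and 23.8, 13.4, 24.1 and 24.4 CPM with bilirubin. Levels with bilirubin were alike in mice 1, 3 and 4 and lay above every vehicle culture, while mouse 2 stayed among the vehicle cultures. The log2 fold change was 0.73 ± 0.20 (SE, n = 4 pairs) with an adjusted p of 0.0716 in edgeR, and the gene passed without mouse 1 (0.51, adjusted p = 0.0425) and without mouse 2 (1.00, adjusted p = 0.00959). It did not pass without mouse 3 or without mouse 4. *Oas1a* (chr5:121031070-121046449), the OAS gene with the highest level per length, had 34.1, 40.8, 43.97 and 45.8 CPM with vehicle in mice 1 to 4 and 69.1, 38.9, 53.2 and 53.7 CPM with bilirubin. Its groups overlapped, with a log2 fold change of 0.37 ± 0.14 and an adjusted p of 0.195, and 0.15 without mouse 1. Pair differences of its near copy *Oas1g* were 2.13, -0.23, 0.66 and 0.36. The larger synthetase genes had pair differences of 1.64, -0.20, 0.48 and 0.18 for *Oas2* and of 1.32, -0.20, 0.30 and 0.17 for *Oas3*. *Oasl2* had pair differences of 1.93, -0.47, 0.61 and 0.37. All 6 genes were negative in mouse 2 and positive in the other mice. The median of the family was 0.18 without mouse 1 and 0.87 without mouse 2.

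IFIT proteins bind viral RNA that lacks the cap methylation of the host, and 0 of their 4 genes passed in edgeR, DESeq2 or limma-voom. In edgeR 1 of the 4 was higher at an unadjusted p under 0.05, against 10.8% of all tested genes. *Ifit1* (chr19:34618271-34632174), whose promoter stretch with 2 ISRE copies is printed above, had 5.30, 7.05, 6.76 and 5.83 CPM with vehicle in mice 1 to 4 and 11.4, 4.71, 11.4 and 10.00 CPM with bilirubin. Bilirubin cultures of mice 1, 3 and 4 were above all vehicle cultures, and that of mouse 2 was the lowest of all 8 libraries. Its fitted log2 fold change was 0.55 ± 0.24 (SE, n = 4 pairs) with an adjusted p of 0.236. Without mouse 1 it was 0.37, and without mouse 2, the only mouse with a negative difference, it was 0.88 with an adjusted p of 0.00741. *Ifit1* did not pass without mouse 3 or without mouse 4. *Ifit3* (chr19:34560899-34566443), the member of the family with the highest level per length, had 4.80, 9.77, 9.90 and 6.70 CPM with vehicle in mice 1 to 4 and 13.4, 8.36, 11.97 and 10.1 CPM with bilirubin. The groups overlapped, and the log2 fold change was 0.52 ± 0.23 with an adjusted p of 0.242, and 0.21 without mouse 1. Pair differences of *Ifit3b*, its near copy, were 1.00, -0.01, 0.32 and 0.24, and those of *Ifit2* were 1.20, -0.16, 0.39 and 0.19. The median of the family was 0.20 without mouse 1.

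In the ISG15 system, a ubiquitin-like protein that is attached to and removed from other proteins, the ligand *Isg15* and the protease *Usp18* were close to each other and *Herc6* was apart. In edgeR, DESeq2 or limma-voom 0 of these 3 genes passed. At an unadjusted p under 0.05 in edgeR 1 of the 3 was higher, against 10.8% of all tested genes. *Isg15* (chr4:156283883-156285303), with 3 overlapping ISRE copies, had 3.76, 6.70, 6.37 and 5.29 CPM with vehicle in mice 1 to 4 and 12.7, 5.34, 10.9 and 8.09 CPM with bilirubin. The bilirubin cultures of mice 1, 3 and 4 were above all vehicle cultures, and that of mouse 2 was within them. Its fitted log2 fold change was 0.72 ± 0.27 (SE, n = 4 pairs) with an adjusted p of 0.176. Without mouse 1 it was 0.38, and without mouse 2, the only mouse with a negative difference, it was 1.04 with an adjusted p of 0.0467. *Isg15* did not pass without mouse 3 or without mouse 4. *Usp18*, which removes ISG15 and also dampens IFNAR2 signaling, had 3.01, 5.14, 5.75 and 5.38 CPM with vehicle in mice 1 to 4 and 15.1, 3.65, 9.10 and 7.14 CPM with bilirubin. This was the largest difference of any of the 50 genes in mouse 1, at 2.31, and the widest spread, so that a log2 fold change of 0.74 ± 0.37 had an adjusted p of 0.305 and went to 0.24 without mouse 1. *Herc6* (chr6:57557932-57642597), the main ligase for ISG15 in mice, had 15.3, 17.7, 18.8 and 17.7 CPM with vehicle in mice 1 to 4 and 24.4, 16.6, 18.9 and 17.1 CPM with bilirubin. Mouse 1 alone differed by more than 0.1, the pair differences being 0.67, -0.09, 0.01 and -0.05, and the log2 fold change of 0.14 ± 0.12 had an adjusted p of 0.596 and was -0.0447 without mouse 1. The median of the 3 genes was 0.72 with all mice and 0.24 without mouse 1.

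**Figure D3:**
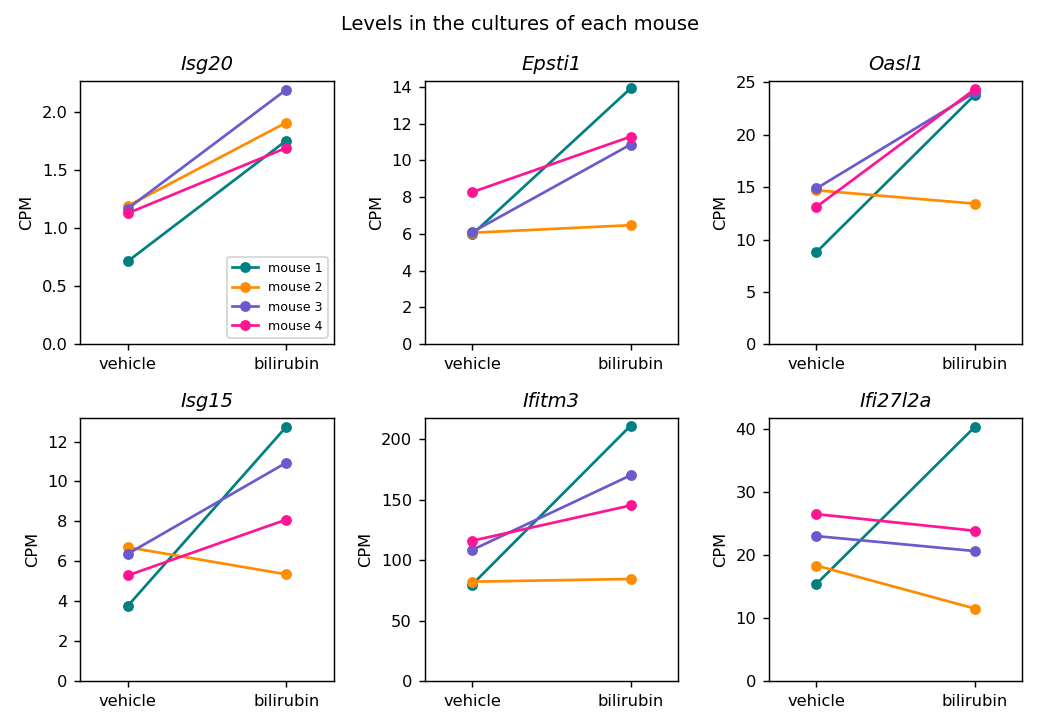
Levels in CPM (vertical axes, from 0) of 6 interferon stimulated genes in the vehicle and bilirubin culture of each mouse (horizontal axes), with a line joining the cultures of 1 mouse. *Isg20* is higher with bilirubin in all 4 mice, *Epsti1* and *Ifitm3* are nearly level in mouse 2, *Oasl1* and *Isg15* are lower in mouse 2, and *Ifi27l2a* is higher in mouse 1 alone.

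Among 10 restriction factors and enzymes that act on nucleotides or RNA, 1 gene passed, and the median fitted log2 fold change was 0.49 with all mice and 0.19 without mouse 1. *Isg20* (chr7:78562598-78570153), an exonuclease that degrades single-stranded RNA, was upregulated. It had 0.715, 1.19, 1.17 and 1.13 CPM with vehicle in mice 1 to 4 and 1.76, 1.91, 2.19 and 1.69 CPM with bilirubin. All 4 bilirubin cultures were above all 4 vehicle cultures, and the pair differences of 1.24, 0.66, 0.88 and 0.56 included the only one above 0.1 in mouse 2. The log2 fold change was 0.86 ± 0.21 (SE, n = 4 pairs), which is 1.81-fold, with an adjusted p of 0.0474 in edgeR. The call was lost with any 1 mouse left out, at adjusted p-values of 0.0647, 0.125, 0.222 and 0.128 without mice 1 to 4. *Isg20* had few counts, 34 in the vehicle library of mouse 1.

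*Ifitm3* (chr7:140589499-140591282), which blocks virus fusion at endosomes, had the highest level per length of the 50 genes, a mean of 376 TPM (transcript abundance scaled for length and depth). It had 79.7, 82.1, 108 and 116 CPM with vehicle in mice 1 to 4 and 211, 84.4, 170.2 and 145 CPM with bilirubin. Mouse 2 was nearly level and the other mice were higher with bilirubin, with a log2 fold change of 0.61 ± 0.18 (SE, n = 4 pairs) and an adjusted p of 0.0928. Without mouse 1 the change was 0.35 with a smaller spread, and it passed with an adjusted p of 0.0186. *Ifitm3* did not pass with any other mouse left out. The dynamin-like GTPase genes *Mx1* and *Mx2* had pair differences of 2.00, -0.57, 0.53 and 0.52 for *Mx1* and of 1.65, -0.45, 0.58 and 0.60 for *Mx2*. Both had low counts, at 4.86 CPM or less. *Rsad2*, which encodes viperin, and its genomic neighbor *Cmpk2* make and supply the chain terminator ddhCTP. Pair differences were 0.93, -0.26, 0.27 and 0.53 for *Rsad2* and 1.34, -0.38, 0.37 and 0.50 for *Cmpk2*. *Bst2*, which tethers budding virions, had pair differences of 0.73, -0.04, 0.29 and 0.21 and passed in DESeq2 but not in edgeR. *Samd9l*, which restricts poxviruses, had pair differences of 0.97, -0.21, 0.25 and 0.32. The Schlafen genes had pair differences of 0.99, -0.14, 0.35 and 0.22 for *Slfn5* and 1.24, -0.10, 0.43 and 0.44 for *Slfn8*. Apart from *Isg20* and *Ifitm3*, these genes were lower with bilirubin in mouse 2 and higher in the other mice.

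The transcription factor *Irf7*, the master regulator of interferon alpha genes and a feed-forward element of the pathway, had the second largest fitted change of the 50 genes. It had 16.6, 23.7, 27.1 and 27.7 CPM with vehicle in mice 1 to 4 and 66.8, 23.9, 46.2 and 41.2 CPM with bilirubin. Mouse 2 was level, and the fold in mouse 1 was 4.02, with a log2 fold change of 0.85 ± 0.26 (SE, n = 4 pairs) and an adjusted p of 0.0989. Without mouse 1 the change was 0.47, with an adjusted p of 0.0134, and *Irf7* did not pass with any other mouse left out. *Irf9* (chr14:55841028-55847812), the DNA-binding part of ISGF3, had 33.04, 38.9, 39.5 and 37.7 CPM with vehicle in mice 1 to 4 and 49.5, 31.2, 41.8 and 37.9 CPM with bilirubin. The bilirubin cultures of mice 1 and 3 were above all vehicle cultures, and that of mouse 2 was below all of them. The log2 fold change of *Irf9*, 0.09 ± 0.12 with an adjusted p of 0.740 in edgeR, was the smallest of the list and was -0.0739 without mouse 1. *Sp100* (chr1:85577709-85637719), a scaffold of nuclear bodies with the highest level per length of this role, had 57.5, 62.97, 64.2 and 68.97 CPM with vehicle in mice 1 to 4 and 103, 54.6, 75.2 and 73.2 CPM with bilirubin. Its pair differences of 0.85, -0.21, 0.23 and 0.09 gave a log2 fold change of 0.24 ± 0.14 and an adjusted p of 0.387, with 0.0390 without mouse 1. The median of the 3 genes was 0.24 with all mice and 0.039 without mouse 1.

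Of the 4 PYHIN genes, whose products bind DNA, 0 passed in edgeR, DESeq2 or limma-voom. In edgeR 1 was higher at an unadjusted p under 0.05, against 10.8% of all tested genes. The median fitted log2 fold change of the 4 genes was 0.27 with all mice and 0.071 without mouse 1. *Ifi203* (chr1:173747971-173770436) had 31.3, 36.6, 38.6 and 34.7 CPM with vehicle in mice 1 to 4 and 63.7, 33.4, 39.3 and 41.5 CPM with bilirubin. Beyond mouse 1 its differences were small, and the log2 fold change was 0.30 ± 0.16 (SE, n = 4 pairs) with an adjusted p of 0.354, and 0.0513 without mouse 1. Pair differences were 0.84, -0.28, 0.09 and 0.26 for *Ifi204*, a DNA sensor upstream of STING, and 1.71, -0.27, 0.49 and 0.94 for *Ifi209*. *Ifi209* had the largest difference of the 50 genes in mouse 4. *Ifi211* had pair differences of 0.60, -0.01, 0.20 and 0.08, and it shares 75.2% of its 31-base words with other genes, so its counts are uncertain.

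The ADP-ribosylation genes were the most even of the roles, with a median standard deviation of the pair differences of 0.30, against 0.72 for the OAS family and 0.85 for the ISG15 system. *Parp12* (chr6:39063342-39095573), a mono-ADP-ribosyltransferase that restricts alphaviruses, had 46.4, 53.2, 55.4 and 56.4 CPM with vehicle in mice 1 to 4 and 72.3, 51.7, 65.1 and 59.9 CPM with bilirubin. The fitted log2 fold change was 0.23 ± 0.10 (SE, n = 4 pairs) with an adjusted p of 0.218, and 0.0937 without mouse 1, and mouse 2 was nearly level. *Parp9* and *Dtx3l* encode partners in 1 complex and overlap on opposite strands of chromosome 16, so reads could be assigned to either. Pair differences were 0.64, 0.06, 0.14 and 0.17 for *Parp9* and 0.59, -0.11, 0.08 and 0.03 for *Dtx3l*. *Parp14*, which modifies STAT proteins, had pair differences of 0.85, -0.07, 0.40 and 0.14. In edgeR, DESeq2 or limma-voom 0 of the 4 passed, and the median fitted log2 fold change was 0.24. At an unadjusted p under 0.05 in edgeR 3 of the 4 were higher, against 10.8% of all tested genes. Without mouse 1 the median was 0.11 and 3 of the 4 genes were above 0.

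Of the other 10 interferon stimulated genes, 1 passed, and the median fitted log2 fold change was 0.40. Without mouse 1 the median was 0.11 and 8 of the 10 genes were above 0. *Epsti1* (chr14:78112017-78240097), a gene first described as induced by epithelial-stromal interaction and by interferon, was upregulated. It had 5.97, 6.07, 6.10 and 8.28 CPM with vehicle in mice 1 to 4 and 13.9, 6.48, 10.9 and 11.3 CPM with bilirubin. Vehicle cultures of mice 1 to 3 were alike, and bilirubin cultures of mice 1, 3 and 4 were above all vehicle cultures, while that of mouse 2 was below the vehicle culture of mouse 4. The log2 fold change was 0.66 ± 0.16 (SE, n = 4 pairs), which is 1.58-fold, with an adjusted p of 0.0489 in edgeR. The call held without mouse 1 (0.47, adjusted p = 0.0321) and without mouse 2 (0.83, adjusted p = 0.0277), and it was lost without mouse 3 or mouse 4 (adjusted p = 0.264 and 0.142).

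*Ifi27l2a* (chr12:103399975-103409950), a small hydrophobic protein and the second of the list by level per length, was higher with bilirubin in 1 mouse only. It had 15.4, 18.3, 22.99 and 26.5 CPM with vehicle in mice 1 to 4 and 40.3, 11.5, 20.6 and 23.8 CPM with bilirubin. The bilirubin culture was above the vehicle culture in mouse 1 and below it in mice 2, 3 and 4, with pair differences of 1.39, -0.67, -0.16 and -0.15. The log2 fold change over all mice was 0.12 ± 0.28 (SE, n = 4 pairs) with an adjusted p of 0.870, and without mouse 1 it was -0.30 with an adjusted p of 0.0499. Pair differences of *Rtp4*, a chaperone of G protein-coupled receptors, were 1.98, -0.28, 0.48 and 0.26. *Ifi44*, a cytoplasmic GTP-binding protein, had pair differences of 1.83, -0.38, 0.25 and 0.06, and *Ifi35*, a leucine zipper protein, had pair differences of 0.45, -0.08, 0.02 and 0.12. *Xaf1*, a binder of the apoptosis inhibitor XIAP, had pair differences of 1.19, -0.15, 0.25 and 0.11. *Trim30a*, a mouse tripartite motif protein that restrains NF-κB signaling, had pair differences of 0.70, -0.27, 0.27 and 0.15. *Ifi47*, an immunity-related GTPase, had pair differences of 0.86, -0.14, 0.27 and 0.27. The plant homeodomain finger genes had pair differences of 1.47, -0.30, 0.56 and 0.11 for *Phf11b* and 0.93, -0.15, 0.41 and 0.48 for *Phf11d*. Of these genes *Ifi35* had the smallest range and *Rtp4* the widest.

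**Figure D4:**
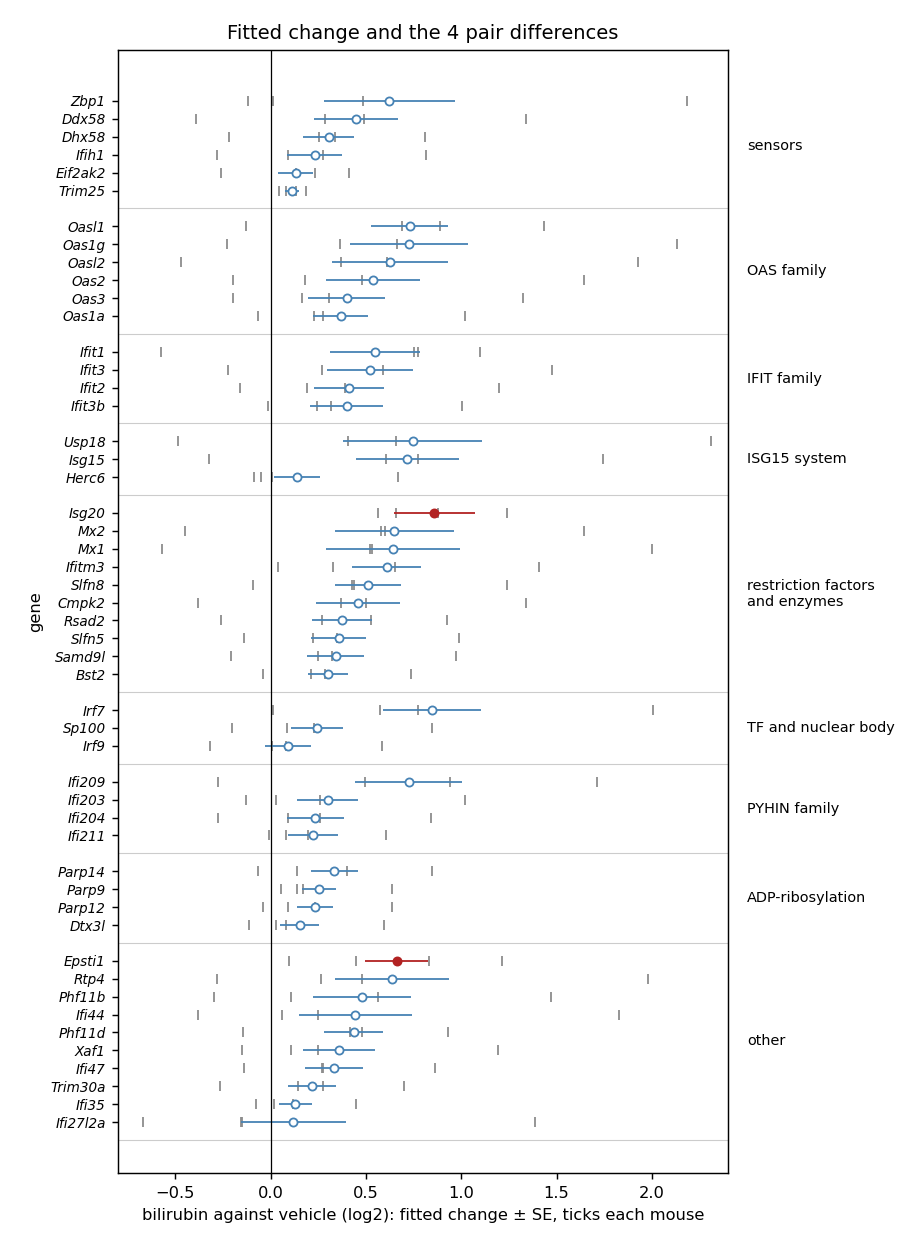
Fitted log2 fold change of bilirubin against vehicle with its SE (points with bars, horizontal axis) and the 4 pair differences (grey ticks) for the 50 genes by role (vertical axis), filled red for an adjusted p under 0.05 and open blue otherwise. All points are right of 0, only *Isg20* and *Epsti1* are filled, and the tick farthest right is mouse 1 for 49 of the 50 genes.

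Levels per length differed widely among the 50 genes. Mean TPM over the 8 libraries ran from 1.69 for *Mx2* to 376 for *Ifitm3*, with a median of 15.6. After *Ifitm3* came *Ifi27l2a* (mean TPM 117), *Bst2* (114), *Trim25* (72.98), *Sp100* (65.98) and *Oas1a* (42.4). Of these 6 genes the fitted log2 fold changes were 0.61, 0.12, 0.30, 0.11, 0.24 and 0.37 in the same order. *Isg20*, with the largest fitted change, was near the bottom with a mean TPM of 2.52. The 50 genes together took between 0.137% and 0.167% of all counts in the vehicle libraries, and 0.266%, 0.138%, 0.202% and 0.185% in the bilirubin libraries of mice 1 to 4.

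Genes with and without the ISRE letters in the promoter window had medians that lay close together. The 19 genes with the letters had a median fitted log2 fold change of 0.40, and the 20 genes with a window but without the letters had a median of 0.38. Their median pair differences in mouse 1 were 1.02 and 1.08, and in mouse 2 they were -0.22 and -0.14. At least 2-fold higher levels in mouse 1 were seen for 12 of the 19 and for 10 of the 20. The difference between these sets was not tested.

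Upstream of these genes, the interferons themselves were at or near the floor of detection. Of 18 type I interferon genes, 0 had enough counts to be tested and 15 had no count in any of the 8 libraries. *Ifnb1*, the first interferon made after sensing, had 5 counts over all libraries and at most 2 in any of them, and *Ifnk* and *Ifnz* reached at most 4 and 3. With 3 counts taken as the floor of a library, no difference in interferon mRNA was detectable at this depth.

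Of 11 receptor and signaling genes, 4 rose, where 4.49% of all tested genes were called higher. The receptor chain gene *Ifnar1* rose by a log2 fold change of 0.18 ± 0.042 (SE, n = 4 pairs, adjusted p = 0.0392 in edgeR), while *Ifnar2* was at -0.02 ± 0.046 (adjusted p = 0.843). *Socs3*, a feedback inhibitor of cytokine receptors, had 3.37, 3.13, 3.60 and 3.10 CPM with vehicle in mice 1 to 4 and 5.84, 7.81, 10.6 and 10.1 CPM with bilirubin. All bilirubin cultures were above all vehicle cultures, and the smallest difference was in mouse 1, with a log2 fold change of 1.35 ± 0.15 and an adjusted p of 0.00147. *Ifngr2*, the signaling chain of the interferon gamma receptor, rose by 0.31 ± 0.034 (adjusted p = 0.00114), with pair differences of 0.31, 0.26, 0.33 and 0.33 that hardly varied. The phosphatase gene *Ptpn6* rose by 0.21 ± 0.040 (adjusted p = 0.0173). The ISGF3 gene *Stat2* did not pass, with 0.02 ± 0.088 (adjusted p = 0.943), and the kinases *Jak1* and *Tyk2* were at 0.08 ± 0.032 and -0.02 ± 0.053 (adjusted p = 0.214 and 0.895).

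Of 18 genes that act in interferon induction, 4 rose and 2 fell. Over all tested genes 4.49% were called higher and 3.04% lower. The kinase gene *Ikbke*, which phosphorylates IRF3 and IRF7, had 67.1, 62.7, 66.5 and 66.9 CPM with vehicle in mice 1 to 4 and 135, 86.4, 129 and 119.7 CPM with bilirubin, with no overlap between groups, a log2 fold change of 0.82 ± 0.082 (SE, n = 4 pairs) and an adjusted p of 7.15e-04 in edgeR. The adaptor gene *Traf3* rose by 0.41 ± 0.053 (adjusted p = 0.00265). Genes of enzymes that remove nucleic acid or nucleotides rose as well, *Trex1* by 0.55 ± 0.10 (adjusted p = 0.0145) and *Samhd1* by 0.31 ± 0.057 (adjusted p = 0.0141). The DNA-sensing adaptor gene *Sting1* was lower with bilirubin at -0.37 ± 0.069 (adjusted p = 0.0142), and so was the RNA receptor gene *Tlr7* at -0.27 ± 0.064 (adjusted p = 0.0387). Pair differences of *Sting1* were -0.14, -0.43, -0.45 and -0.48 and those of *Tlr7* were -0.02, -0.42, -0.26 and -0.40, so the vehicle and bilirubin cultures of mouse 1 were the closest to each other in both genes.

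The interferon gamma inducible GTPases, which attack pathogen vacuoles and overlap with the type I response, also had their largest median difference in mouse 1 and their smallest in mouse 2. Of 14 genes listed, 11 were tested and 4 rose, namely *Gbp5* by 1.44 ± 0.30 (SE, n = 4 pairs, adjusted p = 0.0233 in edgeR), *Gbp7* by 0.83 ± 0.18 (adjusted p = 0.0264), *Gbp3* by 0.73 ± 0.18 (adjusted p = 0.0493) and *Gbp2* by 0.65 ± 0.12 (adjusted p = 0.0155). Over all tested genes 4.49% were called higher. The median pair differences over the 11 GTPase genes were 1.05, -0.03, 0.34 and 0.26 in mice 1 to 4, beside 1.15, -0.20, 0.31 and 0.25 for the interferon stimulated genes. The difference between these lists was not tested. Of the 14 pathway genes that passed, *Socs3*, *Ikbke*, *Traf3* and *Ifngr2* passed in all 11 alternatives, and the other 10 passed in 7 to 9 of them and were lost without mouse 3 and without mouse 4.

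**Figure D5:**
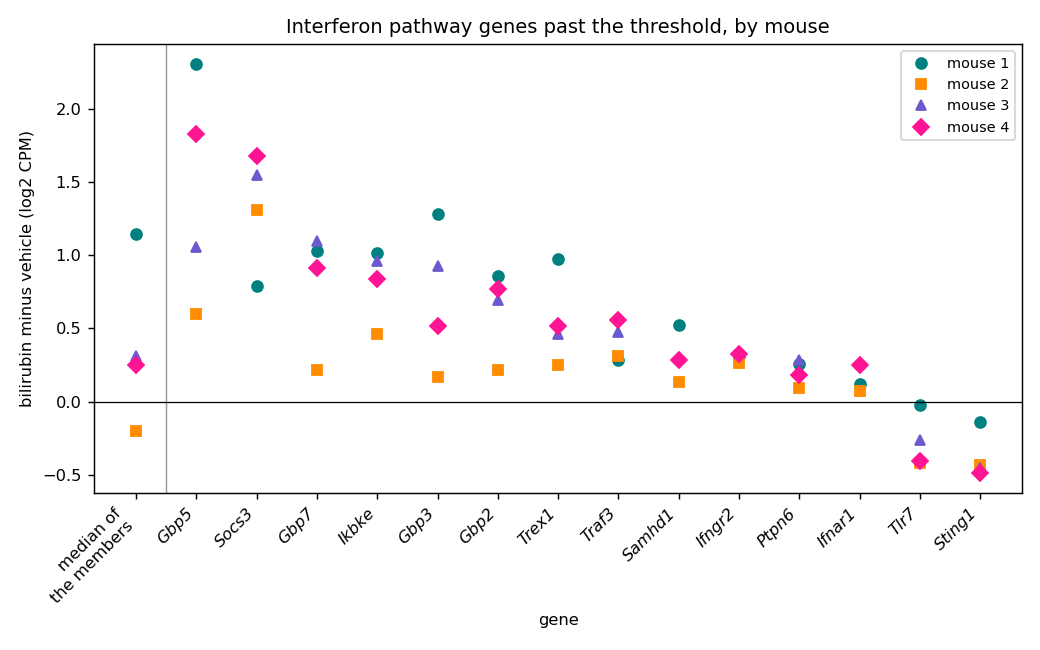
Pair differences (vertical axis, bilirubin minus vehicle in log2 CPM) in each of the 4 mice for the 14 interferon pathway genes outside the list that passed the test (horizontal axis, by fitted change), beside the median of the 50 interferon stimulated genes at left. The 12 genes that rose are above 0 in every mouse, the 2 that fell are below 0 in every mouse, and the median of the list spans -0.20 to 1.15.

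Macrophage identity was clear and other cell types were scarce in every culture. All 10 macrophage markers were expressed, of which 4 rose and 2 fell, where 4.49% and 3.04% of all tested genes did. Their summed levels were 24760 to 25110 CPM in vehicle cultures and 29130 to 31200 CPM in bilirubin cultures. Of plasmacytoid dendritic cells, the main interferon producers, 8 markers were listed, of which *Klk1* had no count and *Siglech* at most 3 in any library. Their summed level of 82.6 to 87.5 CPM with vehicle and 66.4 to 82.6 CPM with bilirubin came mainly from *Tcf4* and *Runx2*, which are not specific to them and which fell with bilirubin. The 9 T and NK cell markers summed to 0.166 CPM or less, and *Ifng*, *Trac*, *Ncr1* and *Prf1* had no count. Summed levels were at most 0.622 CPM for 7 markers of conventional dendritic cells, 2.39 CPM for 9 of neutrophils, 3.03 CPM for 6 of B cells and 7.38 CPM for 8 of stroma and endothelium. B cell markers summed to 2.45 to 3.03 CPM in vehicle cultures, to 2.19 CPM in the bilirubin culture of mouse 1 and to 1.02 to 1.22 CPM in the other bilirubin cultures. The immunoglobulin heavy chain gene *Ighm* fell, with a log2 fold change of -1.16 ± 0.20 (SE, n = 4 pairs), an adjusted p of 0.0114 in edgeR and lower levels with bilirubin in 4 of 4 mice. Neutrophil markers summed to 2.17 CPM in the vehicle culture and 2.39 CPM in the bilirubin culture of mouse 1. Their part in the results was not tested.

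Sequence shared between related genes limits how far single members can be told apart. Of the 50 genes, 12 share over 20% of their 31-base words with other genes of the GENCODE transcripts and 4 share over 50%, namely *Ifi211* (75.2%), *Oas1g* (61.6%), *Phf11b* (59.5%) and *Ifit3b* (58.1%). Exons of 24 of the 50 genes overlap exons of a gene on the other strand and those of 6 overlap a gene on the same strand, such as *Irf9* with *Rnf31*. Whether the counting used strand is not given in the sources used here. The genes lie on 14 chromosomes, with 7 on chromosome 11, and the 4 IFIT genes are neighbors on chromosome 19.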

How the data were processed

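RNA-seq was available for a vehicle and a bilirubin culture from each of 4 mice, paired by the BMDM number in the labels. The labels do not call this number a mouse. It was taken as the mouse because the paper describes BMDM from 4 mice and a mouse covariate. Deviations of same-mouse cultures from their group means correlated at 0.11, 0.13, 0.11 and -0.005, and those of different mice at -0.16 to 0.075. The authors trimmed reads with Trim Galore 0.6.7 and Cutadapt 3.4, used STAR 2.7.9a and Salmon 1.10.1 on GRCm39, and deposited expected counts (estimated counts) per gene, unscaled. TPM per transcript, also deposited, were summed per symbol here. Rounded counts entered edgeR 4.0.16 in R 4.3.3 (TMM, filterByExpr with at least 10 counts, mouse and treatment, quasi-likelihood test), and p-values were adjusted over 13722 tested genes. CPM values use TMM-scaled library sizes. Alternatives were treatment alone, DESeq2 1.42.0, limma-voom 3.58.1, other scalings and filters, and each mouse left out. On simulated counts for this comparison, 171 of 200 genes changed 2-fold were recovered among 13553, and 19 of 190 calls were false. The largest fitted change of the interferon stimulated genes was 1.81-fold, for *Isg20*, so this recovery does not extend to them. Recovery of smaller changes was not tested. The share of false calls was above the threshold of 0.05. *Isg20* and *Epsti1* passed close to that threshold, at adjusted p-values of 0.0474 and 0.0489 in edgeR. Positions are from GENCODE in GRCm39 and promoters from RefSeq in GRCm38.p6. No 2 libraries were duplicates.

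The 50 genes, the lists of other genes and the rule for named genes were chosen with earlier results of these data known. All 50 genes are named, and given in full are those past the threshold, the 3 with the largest and the 3 with the smallest median pair difference, and the gene of each role with the highest mean TPM. Of the other lists, genes past the threshold and genes at or near 0 are named, and *Ddx58*, *Usp18* and *Irf7* were given in full, and *Ifnar2*, *Stat2*, *Jak1* and *Tyk2* named, after their values were seen. Raw reads were not analysed here, and the result of 1 gene is not reported here.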

Additional observations from a re-analysis of the deposited data

Results flagged for a closer look

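In *Herc6* the pair difference of mouse 1, 0.67 on the log2 scale, was far from those of the other 3 mice, which lay between -0.09 and 0.01, by Dixon's criterion. It was the only one of 50 genes tested in this way, and chance alone marks about 1 in 20.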

How the results depend on the processing

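All 50 genes kept a fitted change above 0 under every alternative that used all 4 mice, and the median stayed between 0.37 and 0.42. The number of genes past the threshold did not hold. It was 2 as reported and 1 (*Isg20*) without the mouse as replicate block, against 3.34% of all tested genes called higher there. It was 0 with library size alone (3.84% of all genes), where the smallest adjusted p in edgeR was 0.0553. There 12 of the 50 had an unadjusted p under 0.05, and the share of all genes at that p was not computed. The number was 38 without a filter, where 3.53% of all genes were called higher. In that fit 26021 genes were tested and edgeR's prior degrees of freedom went from 5.24 to 82.3. DESeq2 also called 2 (*Bst2* and *Epsti1*, against 4.66% of all genes) and limma-voom 3 (*Oasl1*, *Isg20* and *Epsti1*, against 4.73%). With 1 mouse left out, 0 to 6 genes passed as higher (1.93% to 7.46% of all genes) and 0 to 1 as lower, and the median ranged from 0.15 to 0.58. The lowest median came without mouse 1 and the highest without mouse 2.

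Among the interferon pathway genes outside the list, 12 were higher and 2 lower, where 4.49% and 3.04% of all tested genes were. Without the replicate block 0 were lower, against 1.66% of all genes. With 1 mouse left out 4 to 13 were higher (1.93% to 7.46% of all genes) and 0 to 3 lower (0.816% to 6.43%). *Epsti1* passed in 7 of 11 alternatives and *Isg20* in 5 of 11. The sign of *Stat2* turned with library size alone, to -0.00801. With 1 mouse left out, fitted changes crossed 0 for *Herc6* (-0.0447 to 0.21), *Irf9* (-0.0739 to 0.22), *Dtx3l* (-0.00132 to 0.24), *Ifi44* (-0.00452 to 0.70), *Ifi27l2a* (-0.30 to 0.35), *Stat2* (-0.11 to 0.10) and *Ifnar2* (-0.0702 to 0.019). The first 6 were below 0 without mouse 1, and *Ifnar2* was above 0 without mouse 3. The cause was not tested beyond these values. Of the single-gene values from alternatives that kept all mice, 424 had the same direction and side of the threshold, 41 newly passed, 10 no longer passed and 1 reversed.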
